A study of Bos taurus with 8 samples.

Results

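The monocytes and macrophages of freshly digested bovine skeletal muscle are described here. They are the cells of the muscle library that the deposited annotation named monocytes/macrophages, 403 of 4395 annotated muscle cells (9.17%) and of 36129 cells in the series. The other 3992 muscle cells, among them 188 lymphocytes and 51 neutrophils, served as the comparison. Because the label was itself assigned from gene expression, differences of genes from other cells are given as descriptions without a test. UMIs, detected genes and mitochondrial share per cell were tested against the other cells. Donor age took no part in the choice of cells and was tested.

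Monocytes circulate in blood and enter tissues, where they can become macrophages, while other macrophages reside in tissue for long periods. Both depend on signals through the CSF1 receptor and carry receptors for pathogens, antibody-coated particles and dying cells, which they digest in lysosomes. In muscle, macrophages clear damaged fibres and release factors that act on the stem cells of the fibres, the satellite cells (SCs), and on stromal fibro-adipogenic progenitors (FAPs). Dendritic cells and mast cells are other leukocytes that live in tissue and can share genes with them.

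The study followed muscle cells through a cultured beef process, from which only the fresh muscle was used here. Semitendinosus muscles of 10 Belgian Blue cattle were digested with collagenase, red cells were lysed, and the unsorted cells were pooled into 1 library and assigned to donors by genotype. By the donor list of the study, 5 animals were calves (donors 2, 4, 5, 7 and 10), the other 5 were adults (donors 1, 3, 6, 8 and 9), and donors 6, 8 and 10 were male. No animal or cell had been treated, none had been cultured, and each age group was a set of single animals that shared the library with the other group. The monocytes/macrophages held 2581925 UMIs (unique molecular identifiers, counts of captured transcripts), with 77392 to 693673 UMIs per donor from 28 to 121 cells in the calves and 13 to 33 cells in the adults. Genotyping had called 728 of 8980 barcodes (8.11%) doublets of different donors, and 6 of the 403 cells carried a barcode sequence that also occurred in another library of the series.

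The marker genes of the label were present in every donor. CSF1R, the receptor for the growth factor CSF1, reached 732 to 1485 CPM (a donor's summed UMIs scaled to a common library size with TMM factors), with a median of 918, against 0 to 2.37 CPM in all other cells. CD14, a co-receptor for bacterial lipopolysaccharide, ranged from 188 to 557 CPM with a median of 369, against 12.1 to 40.5. PTPRC, the pan-leukocyte phosphatase CD45, lay between 184 and 462 CPM with a median of 255, against 18.04 to 77.4. For all 3 genes the 10 donors' values lay above those of all other cells without overlap. The label was assigned from gene expression, and the share of all genes without overlap is not given here. A lack of overlap from the other cells is therefore only a description. At least 1 CSF1R UMI was found in 87.1% of the cells, against 0.532% of lymphocytes and at most 0.487% of FAPs, vascular endothelial cells, SCs and smooth muscle and mesenchymal cells. After each cell was thinned to 1500 UMIs, which left out 2 of the 403 cells, the share was 69.6%, against at most 0.205% in any of these types. CD14 was less restricted, since 26.8% of FAPs also held a CD14 UMI, against 60.8% of the monocytes/macrophages (8.03% and 32.4% after thinning).

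The label did not describe every cell equally well. Clustering the 403 cells on their own gave 6 sub-clusters, with 127, 88, 99, 45, 20 and 24 cells, named here by number and by marker lists. The first 3 held 314 cells from all 10 donors and 5242 to 14575 CPM of C1QA, against 0 to 2150 CPM in the other 3 (pooled over donors). Sub-cluster 5, with 20 cells from 6 donors, went against the label: it had no UMI of CSF1R, CD14, C1QA, C1QB or C1QC, and its leading genes included TPSB2 (2034 CPM), CPA3 (2248 CPM) and KIT (1453 CPM), the tryptase, carboxypeptidase and stem cell factor receptor of mast cells. GZMB, a granzyme on the lymphocyte list, also led this mast cell-like group, at 1074 CPM. Its cells had a median of 3423 UMIs, against 4955 to 9018 in the other sub-clusters. Both the 20 mast cell-like cells and the 24 of sub-cluster 6 stayed together in 1 cluster each at coarser and finer clustering. At the coarser setting, by contrast, the 45 cells of sub-cluster 4 shared a cluster with 78 of sub-cluster 2. At the finer setting sub-clusters 1 to 4 broke up, and 24 of the 45 cells lay in 1 cluster of 47 cells. The comparisons were therefore repeated without sub-cluster 5 and for sub-clusters 1 to 3 alone.

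Sub-cluster 1 was led by RND3, CLEC3B and CD5L and had the highest pooled levels of LYVE1 (2227 CPM), FOLR2 (2136 CPM), CD163 (1586 CPM) and TIMD4 (326 CPM), receptors found on resident tissue macrophages. COL1A1, a fibroblast collagen, was also among its 10 leading genes. In 9 of its 127 cells 5 or more UMIs of 8 FAP markers were present, up to 403 in a cell, and 40 cells held 5 or more UMIs of muscle fibre genes. The part of mixed droplets or free RNA in these values was not tested. Sub-cluster 2 was led by the complement gene C3 and by CXCL8 (1224 CPM) and CXCL2 (941 CPM), which attract neutrophils, with IL10 (317 CPM), an anti-inflammatory cytokine, and CX3CR1 (317 CPM), the fractalkine receptor. Sub-cluster 3 was led by the chemokines CCL17 (496 CPM), CXCL9 (191 CPM) and CCL8 (412 CPM), with CCL2 (1886 CPM) and FCGR1A (647 CPM), the high-affinity receptor for IgG. Since clusters are made from such genes, these levels define them and are not findings.

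The remaining sub-clusters had less of the macrophage list than sub-clusters 1 to 3. Sub-cluster 4 was dendritic cell-like, with 45 cells from all 10 donors. FLT3, the receptor that dendritic cells depend on, reached 151 CPM there, against 0 to 22.8 CPM in the others, CD1B (lipid antigen presentation) 142 CPM, and CCR7, a homing receptor, 83.9 CPM. FCER1A, at 156 CPM, was higher still in the mast cell-like group (316 CPM), and CD1E, also on the dendritic cell list, was higher in sub-clusters 2 (202 CPM) and 3 (97.6 CPM) than in sub-cluster 4 (83.9 CPM). Sub-cluster 4 had the highest levels of CD74 (16868 CPM) and BOLA-DRA (11624 CPM) of the 6, but 95.5 CPM of C1QA against 14575 CPM in sub-cluster 1. Of the label's markers, CD14 was nearly absent from sub-cluster 4 (2 UMIs, 5.79 CPM, against 393 to 571 CPM in sub-clusters 1 to 3). CSF1R stood there at 159 CPM, against 935 to 1770 CPM, whereas PTPRC, at 275 CPM, lay within their range. UBD, MT3, LY6E and CST3 also led it, and 11 of its 45 cells held 5 or more UMIs of lymphocyte markers. Among these, the B cell genes MS4A1 and CD79A were at 86.8 and 81.04 CPM and CD69 at 83.9 CPM. Sub-cluster 6 was monocyte-like, with 24 cells from 7 donors. It was led by the calgranulins S100A12 (7487 CPM), S100A9 (3278 CPM) and S100A8 (2493 CPM), with FCN1 (2123 CPM) and VCAN (534 CPM). CCR2, also on the monocyte list, had no UMI there, against 6 to 9 UMIs in each of sub-clusters 2, 3 and 4. The 3 calgranulins and CSF3R are shared with neutrophils, and 19 of the 24 cells held 5 or more UMIs of the 12 neutrophil markers. Of these markers NFE2 (91.3 CPM), TCN1 (22.8 CPM), TGM3 (18.3 CPM) and CXCR1 (9.13 CPM) were also present in sub-cluster 6. CXCR2, LTF, MMP8 and PGLYRP1 had no UMI in the 403 cells, but MMP8 and PGLYRP1 had none in the annotated neutrophils either. The summed macrophage list stood at 7492 CPM in sub-cluster 6, against at most 1480 CPM in the neutrophils of any donor (both without TMM factors). The heatmap of marker genes shows these 6 profiles.

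**Figure D1:**
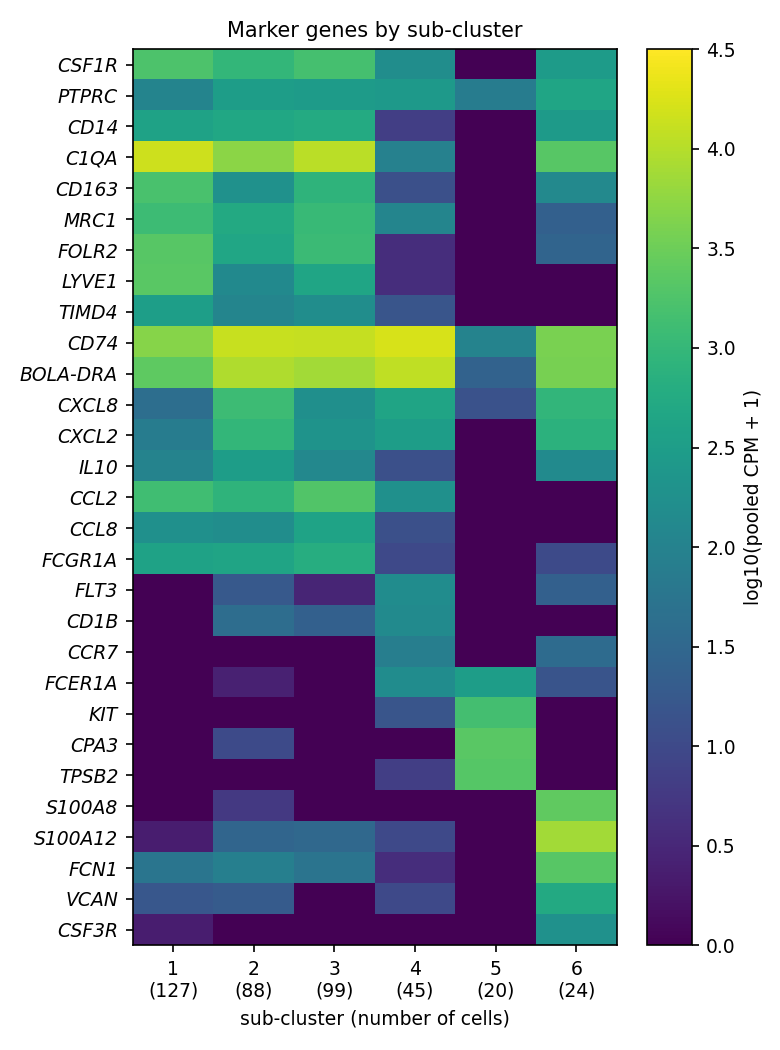
Pooled level of 29 marker genes in the 6 sub-clusters of the 403 monocytes/macrophages, as log10(CPM + 1), with the number of cells in parentheses. CSF1R, CD14 and C1QA are absent from sub-cluster 5, where KIT, CPA3 and TPSB2 are high, and the calgranulins S100A8 and S100A12 are high in sub-cluster 6. CD14 is also low in sub-cluster 4 (5.79 CPM).

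In every donor the monocytes/macrophages had more UMIs per captured cell than the rest of the tissue. The per-donor median of UMIs per cell was 6100 ± 718 (mean ± SD, n = 10 donors) against 3974 ± 788 in all other cells, and the median number of genes per cell was 2027 ± 91.7 against 1574 ± 206. The median of mitochondrial UMIs was 3.38 ± 0.375% against 2.92 ± 0.239%. All 3 were higher in 10 of 10 donors (exact 2-sided sign-flip test, p = 0.00195, the smallest this design allows, adjusted p = 0.00195 over 3 measures). With the mean over a donor's cells in place of the median, the mitochondrial share was higher in 8 of 10 donors and the difference was smaller, 0.222 in place of 0.465 percentage points (exact sign-flip test, p = 0.0215). Among cell types, however, FAPs (6078 UMIs) and tenocytes (6041 UMIs) had medians slightly above the 5945 of the monocytes/macrophages, and neutrophils had 1354. The mitochondrial median of the monocytes/macrophages, 3.33%, was below those of lymphocytes (3.96%), smooth muscle and mesenchymal cells (3.98%), tenocytes (3.65%) and glial cells (4.53%). It was above those of SCs (3.30%), lymphatic (3.11%) and vascular (2.18%) endothelial cells, FAPs (2.57%), myocytes (1.61%) and neutrophils (1.42%).

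For the comparison with all other cells, UMIs were summed per donor and the ratio of CPM was taken within each donor (log2, with a prior count of 2). A gene was called higher or lower by size where the mean ratio over 10 donors exceeded 1 on the log2 scale in either direction with the same sign in every donor. Of 5906 genes with a mean of at least 20 CPM, 631 (10.7%) were higher and 928 (15.7%) were lower in monocytes/macrophages, and the median of all genes was -0.16. These percentages are the background for the gene lists below. The filter used the mean of both groups, so a gene nearly absent from the other cells passed only through the monocytes/macrophages. For such genes a call as higher was largely set by the filter, and the list counts are descriptions only. Among genes with a symbol, the highest ratios were those of C1QA (9.66 ± 0.91 on the log2 scale, SD over donors), C1QB (9.62 ± 0.82), BRB (9.42 ± 0.87), C1QC (9.35 ± 0.75), F13A1 (8.98 ± 0.91), CSF1R (8.70 ± 0.63), AIF1 (8.53 ± 0.59), FOLR2 (8.32 ± 0.79), CD163 (8.23 ± 0.37), RNASE6 (8.05 ± 0.70), PKIB (7.45 ± 0.64) and CCL24 (7.44 ± 0.75). The prior count lowers the ratio of genes near 0 in the other cells, so this order also depends on how abundant a gene was. C1QA, C1QB and C1QC form the recognition molecule of the classical complement pathway, F13A1 is the catalytic subunit of a clotting transglutaminase, and AIF1 (IBA1) is an actin-binding protein widely used to stain macrophages. BRB and RNASE6 belong to the RNase A family, whose members are similar in sequence, so reads of BRB may be shared with its paralogs.

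The lowest ratio among genes with a symbol was that of DCN. DCN, a collagen-binding proteoglycan, lay at 89.6 ± 126 CPM against 7825 ± 2503 CPM (-7.20 ± 1.54 on the log2 scale), and CCN3, IGFBP7, OGN, AQP1, SERPINF1, TNXB, PLAC9, COL4A1, ADAMTS1, APOD and MGP followed, at -7.06 to -6.78. Of the marker genes of other cell types, 8 of 8 FAP genes, 8 of 8 vascular endothelial genes, 4 of 4 SC genes and 6 of 6 smooth muscle and mesenchymal genes that passed the filter were lower, with list medians of -6.47, -5.20, -4.96 and -5.05. Muscle fibre genes were closer, with 4 of 7 lower and a median of -1.91, and 65 of the 403 cells held 5 or more fibre UMIs. ACTA1, skeletal muscle actin, had a UMI in 46.7% of the monocytes/macrophages, 28.7% of lymphocytes and 75.9% of FAPs, all of which should lack it (17.5%, 12.2% and 42.4% after thinning).

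**Figure D2:**
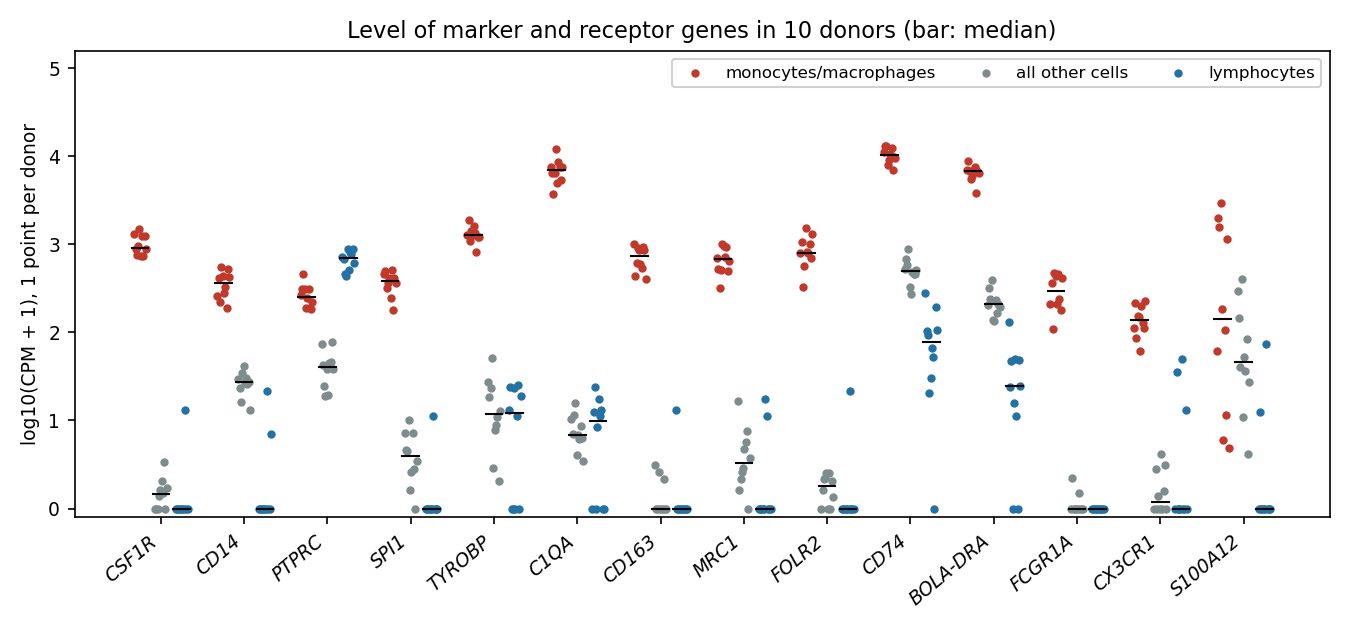
Level of 14 genes in each of the 10 donors as log10(CPM + 1), for monocytes/macrophages, all other muscle cells and lymphocytes, with bars at the median. Except for S100A12, all 10 monocyte/macrophage values of each gene lie above those of all other cells, and PTPRC is higher in lymphocytes than in all other cells in every donor. The share of all genes separated in this way is not given. Monocytes/macrophages and all other cells share a scaling, and lymphocytes are drawn in that of their own comparison.

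Regulators of the myeloid lineage were mostly higher. Of 7 lineage regulators that passed the filter 5 were higher, with a list median of 4.42 on the log2 scale. SPI1 (PU.1), the transcription factor required for the myeloid lineage, was found at 178 to 510 CPM (median 387) against 0 to 9.22 CPM, a log2 ratio of 6.25 ± 0.81. BATF3, known from dendritic cells, had a ratio of 6.96 ± 0.69. Its pooled level was highest in sub-cluster 4 (483 CPM), but sub-clusters 2 (437 CPM), 3 (368 CPM) and 1 (199 CPM) also held it. IRF5, IRF8 and TFEC were also higher (4.42, 3.88 and 4.72), whereas CEBPD (-0.84 ± 0.67) and KLF4 (0.16 ± 0.42) were not called.

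Of 12 cytokine and chemoattractant receptors 11 were higher (median 4.80). CX3CR1 ranged from 60.5 to 226 CPM in monocytes/macrophages and from 0 to 3.17 in all other cells (log2 ratio 5.74 ± 0.95). The complement receptors C3AR1 and C5AR1, the chemokine receptor CCR1 and the inhibitory lectin CLEC12A had ratios of 6.35, 5.54, 4.31 and 6.03. CXCR4, at 506 ± 187 CPM, was the exception at 1.55 ± 0.83. CCR2, the receptor by which monocytes leave the bone marrow, had a UMI in 4.96% of the cells and did not pass the filter. All 15 leukocyte signalling genes were higher (median 3.403), among them the activating adaptors TYROBP (6.67 ± 1.28) and FCER1G (5.59 ± 0.47), the kinases SYK and LYN, and PTPRC itself (2.72 ± 0.96).

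Genes for sensing and uptake were higher almost without exception. All 9 pattern recognition genes were higher (median 4.06), from MYD88 (1.30 ± 0.53) and TLR4 (1.37 ± 0.73) to the inflammasome adaptor PYCARD (6.15 ± 0.60). Of 15 scavenging and phagocytic receptors 14 were higher (median 5.83, or 6.14 with ITGAM at its bound), the exception being AXL, a receptor that binds dying cells (-0.46 ± 0.76). CD163, the scavenger receptor for haemoglobin, ranged from 402 to 997 CPM with a median of 741, against at most 2.09 CPM in all other cells. MRC1, the mannose receptor, ranged from 316 to 1002 CPM with a median of 678, against 0 to 15.7. FOLR2, a folate receptor, ranged from 328 to 1535 CPM with a median of 804, against at most 1.56. No donor's values of these 3 receptors overlapped, which is again only a description. LYVE1, a hyaluronan receptor shared with lymphatic endothelium, was the lowest of the called receptors in this list at 3.61 ± 1.32. ITGAM, a complement receptor integrin, had no UMI in the other cells and was at least 256-fold higher, and FCGR1A had 918 UMIs against 3 in all other cells, a ratio of 2180 (95% interval for counting error only, 744 to 10592).

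The complement list split by chain. C1QA ranged from 3757 to 12117 CPM with a median of 7021, against 2.43 to 14.8 CPM in all other cells, and CFP (properdin, 6.32 ± 1.04), CFD (factor D, 5.36 ± 0.66) and C3 (2.58 ± 1.25) were also higher. C1R and C1S, the proteases that pair with C1q in the C1 complex, were lower in every donor, at 6.35 ± 3.93 CPM against 347 and 5.29 ± 6.05 CPM against 338 (-5.47 ± 0.88 and -6.06 ± 1.56). CFB, at 2.06 ± 3.98 CPM against 48.0, was not called. Thus 6 of 10 complement genes were higher and 2 lower, with a median of 3.97.

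All 11 genes of MHC class II presentation and costimulation that passed the filter were higher (median 4.75). CD74, the invariant chain that guides class II molecules, ranged from 7055 to 13244 CPM with a median of 10265 and a ratio of 4.37 ± 0.56, and BOLA-DRA from 3825 to 8810 CPM with a median of 6775 and a ratio of 4.92 ± 0.51. The comparison group was not free of these transcripts, since 92.7% of vascular endothelial cells held a CD74 UMI and 79.4% one of BOLA-DRA, against 95.3% and 95.04% of the monocytes/macrophages. CD83 (6.29 ± 0.96) and CD86 (5.44 ± 0.60), which mark and costimulate, had ratios above those of CD74 and BOLA-DRA. BOLA-DOA had 152 UMIs against 3 in all other cells, a count ratio of 361 (95% interval for counting error only, 121 to 1770). The polymorphic DQ genes varied most between donors: BOLA-DQA5 lay between 15.3 and 83.6 CPM in 6 donors and between 564 and 888 CPM in donors 2, 5, 6 and 7, and BLA-DQB between 297 CPM in donor 1 and 8868 CPM in donor 2. DQ genes are near-identical copies whose number and sequence differ between animals, so reads can be lost or split between them. The part of such reads in these donor differences was not tested.

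Of 19 lysosomal genes 13 were higher (median 2.49). CTSS, the protease that trims the invariant chain, had the highest ratio, 4.25 ± 0.28 at 2173 ± 330 CPM, followed by ACP5 (4.22 ± 0.51), CD68 (3.82 ± 0.63) and GRN (3.20 ± 0.46). The widely expressed LAMP1, LAMP2, CTSD and GLB1 were not called, with ratios of 0.20 to 0.87. All 6 subunits of the NADPH oxidase, which makes the oxidative burst, were higher (median 4.32), led by CYBB at 5.99 ± 0.55. Neutrophils, which are among the other cells, had a similar summed level of this list (1769 ± 555 CPM in 9 donors against 1541 ± 223 CPM in 10, both without TMM factors). Their means were also 1910 against 1878 CPM for the lineage regulators, 1683 against 1733 for pattern recognition, 7622 against 4190 for the cytokine and chemoattractant receptors and 12542 against 7153 for leukocyte signalling, whereas those of scavenging receptors (452 against 5415) and class II genes (322 against 23700) were lower in neutrophils. These sums rest on 51 neutrophils, and their differences were not tested. Of 12 iron and lipid genes 8 were higher and 2 lower (median 2.72). The ferritin chains FTH1 (2.30 ± 0.21) and FTL (3.19 ± 0.37), the iron exporter SLC40A1 (3.19 ± 0.68) and HMOX1 (3.67 ± 0.87), which breaks down haem, were higher, and CD36 (-4.55 ± 1.84) and FABP5 (-4.53 ± 1.80), which carry fatty acids, were lower.

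**Figure D3:**
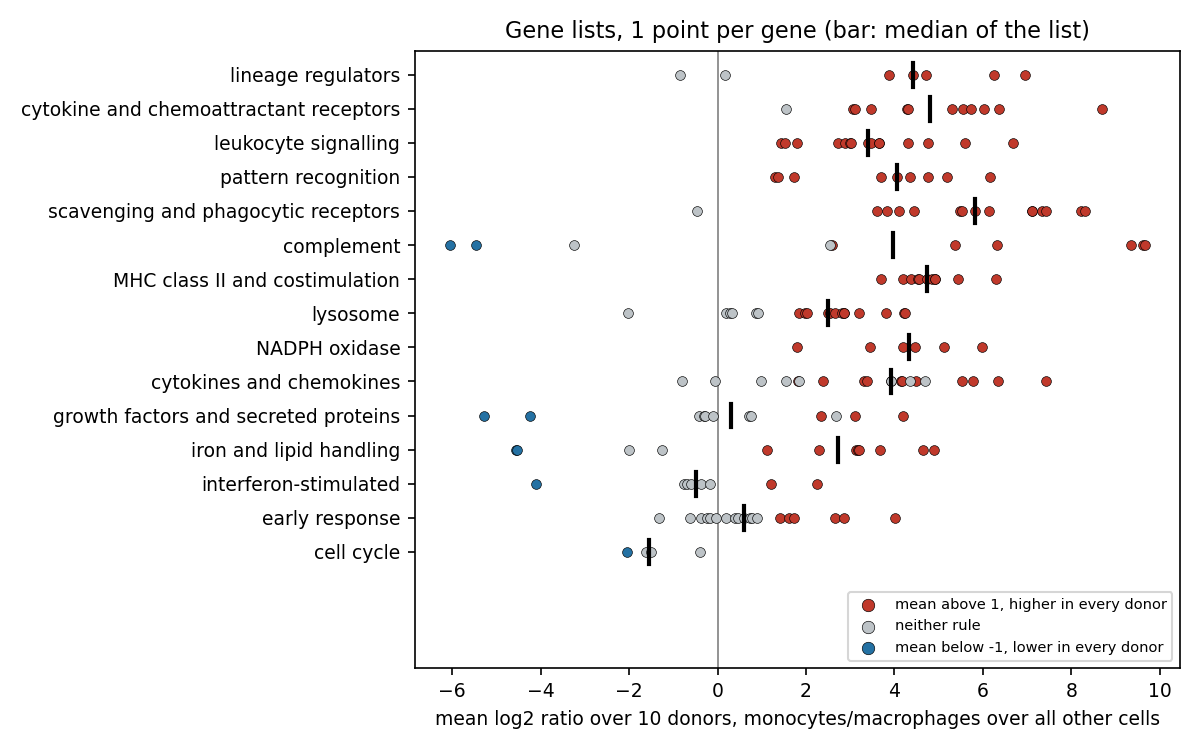
Mean log2 ratio of CPM in monocytes/macrophages over all other muscle cells (n = 10 donors), 1 point per gene for 15 lists, coloured by whether the ratio passed 1 with the same sign in every donor, with a bar at each list's median. The class II, signalling and pattern recognition lists lie wholly to the right of 0, as does the scavenging list except AXL (-0.46), and the complement list reaches from -6.06 to 9.66.

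Secreted signals varied between donors. Of 20 cytokine and chemokine genes 12 were higher (median 3.92). CCL24, an eosinophil attractant, ranged from 172 to 783 CPM, against at most 2.37 CPM in all other cells. GRO1 (486 to 3857 CPM), a neutrophil attractant with similar paralogs in cattle, had a ratio of 4.17 ± 0.82, and TNF (3.92 ± 1.04), IL1B (3.32 ± 1.28), IL1RN (4.15 ± 1.32), IL10 (5.52 ± 1.53) and CCL4 (6.35 ± 1.48) were also higher. CXCL8 ranged from 0 CPM in donor 3 to 1256 CPM in donor 6, with a ratio of 3.91 ± 2.98, and was not called. CCL2, a monocyte attractant, ranged from 287 to 3510 CPM, but all other cells held 80.3 to 963 CPM, and the ratio was 1.56 ± 1.67. CXCL8 and IL1B were not particular to these cells among leukocytes, since 88.2% and 96.1% of neutrophils held a UMI, against 28.0% and 23.1% of the monocytes/macrophages.

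Growth factors had a median near the level of the other cells. Of 12 growth factors and secreted proteins 3 were higher and 2 lower, with a median of 0.30. The EGF family ligand HBEGF (169 ± 74.7 CPM, 4.18 ± 0.78), the matrix protein TGFBI (591 ± 149 CPM, 3.104 ± 0.61) and METRNL (872 ± 105 CPM, 2.34 ± 0.55) were higher, GAS6 (-5.28 ± 1.68) and THBS1 (-4.24 ± 2.17) lower. IGF1, the myogenic growth factor, was at 69.8 ± 41.1 CPM against 40.9 CPM (0.70 ± 1.01), and VEGFA at 40.2 ± 29.7 against 36.1 (-0.42 ± 1.53), neither with 1 sign in all donors.

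Immediate early genes, which answer many stimuli within minutes, were in part higher. Of 19 such genes 6 were higher and 0 lower, with a median of 0.61 against -0.16 for all genes. The other cells were mixed: the summed list averaged 24319 CPM in monocytes/macrophages, 10991 in FAPs and 11710 in lymphocytes (without TMM factors). It averaged 29693 CPM in vascular endothelial cells, 30427 in SCs, 29052 in smooth muscle and mesenchymal cells and 35966 in neutrophils. FOS (2653 ± 658 CPM) and JUN (3543 ± 868 CPM) had ratios of 0.77 ± 0.41 and -0.17 ± 0.49, whereas DUSP2 (4.01 ± 0.56), TNFAIP3 (2.86 ± 0.92) and NFKBIA (2.66 ± 0.49), feedback genes of immune signalling, were higher. Of 8 interferon-stimulated genes 2 were higher (IFI6, 2.24 ± 0.68, and XAF1, 1.21 ± 0.45) and RSAD2 was lower (3 UMIs against 764 in all other cells), with a median of -0.49. Cell cycle genes were scarce: 4 passed the filter, STMN1 was lower (-2.05 ± 1.39), and MKI67, a proliferation marker, had a UMI in 0.993% of the cells, against 0.894% of FAPs, 1.54% of vascular endothelial cells and 4.79% of SCs (0.998%, 0.579%, 1.18% and 3.17% after thinning).

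Lymphocytes are the other large leukocyte group of the tissue. For this comparison the per-donor sums of lymphocytes held 10 to 30 cells and 42591 to 187847 UMIs, so many myeloid genes had few or no counts there, and CPM were scaled anew, so that C1QA averaged 6654 CPM in the monocytes/macrophages in place of 7049 CPM. Of 5200 genes, 611 (11.8%) were higher and 272 (5.23%) lower in monocytes/macrophages, with a median of 0.18. Without sub-cluster 5 the counts were 589 and 302, and for sub-clusters 1 to 3 alone 540 and 355. Among genes with a symbol, the highest ratios were those of C1QA (8.48 ± 0.87) and C1QC (8.23 ± 0.65), with BRB (8.20 ± 0.75), C1QB (7.80 ± 0.79), CFD (7.56 ± 1.16), BOLA-DRA (7.46 ± 0.98), F13A1 (7.40 ± 0.43), CD74 (7.02 ± 1.18), GRO1 (6.81 ± 1.11), RNASE6 (6.81 ± 0.62), AIF1 (6.55 ± 0.39) and CSF1R (6.29 ± 0.59). CSF1R had 2850 UMIs against 1 in the lymphocytes, a ratio of 1035 (95% interval for counting error, 186 to 40896), and BRB, C1QB, C1QC, F13A1, RNASE6 and AIF1 also rested on 1 to 3 lymphocyte UMIs.

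CTSW, a protease of cytotoxic lymphocytes, had no UMI in the 403 cells and was at least 885-fold lower. CD3E, a chain of the T cell receptor complex, had 2 UMIs against 684 in the lymphocytes, or 942-fold less (interval for counting error, 260 to 7792). HOPX, IL2RB, ETS1, HCST, CD7, IFI47, CD52, UBD, S100A13 and XCL1 were the next lowest with a symbol, from -5.87 to -4.66. Of 13 lymphocyte markers that passed the filter 12 were lower, with a median of -3.89 (-4.21 with the 2 absent genes at their bound), and NKG7 was not called (67.9 ± 30.7 CPM against 199.8 CPM in the lymphocytes). GZMB, CD79B and MS4A1, also on the list of 18, had no UMI in the lymphocytes. Within the monocyte/macrophage label, sub-cluster 5 held 85 GZMB UMIs, and sub-cluster 4 held 30 of MS4A1 and 13 of CD79B.

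The myeloid lists kept their direction against lymphocytes, but the pan-leukocyte list did not. All 12 macrophage genes, all 11 class II genes and all 6 complement genes that passed the filter were higher (medians 5.79, or 5.87 with 3 genes at their bound, 4.90 and 7.68), as were 12 of 14 scavenging receptors (median 4.76, or 5.37 with 5 genes at their bound), 8 of 9 pattern recognition genes, 7 of 8 lineage regulators and 15 of 18 lysosomal genes (2.14, 2.54 and 3.52, the first and second of these 2.24 and 2.90 with 1 gene each at its bound). Summed over its genes, the macrophage list stood at 161 CPM in lymphocytes, the class II list at 261 and complement at 83.1 (without TMM factors). Genes of these lists therefore passed the filter mainly through the monocytes/macrophages, which largely set their calls as higher. The lymphocytes held no UMI of the B cell genes MS4A1 and CD79B, so the class II ratios do not speak for B cells. LYVE1, with no lymphocyte UMI, was at least 246-fold higher, CCL24 at least 152-fold, MSR1 at least 129-fold and FCGR1A at least 111-fold. Of 12 cytokine and chemoattractant receptors 9 were higher (median 3.67), but CXCR4 was lower in every donor (-1.68 ± 0.88). Of 7 monocyte genes 3 were higher (median 2.50). Of 15 leukocyte signalling genes only 6 were higher and 4 lower (median -0.10). TYROBP, FCER1G and the kinases LYN, SYK and FGR were among the higher genes, and RAC2 (-2.31 ± 0.58), ARHGDIB (-1.44 ± 0.24), PTPRC (-1.38 ± 0.72) and CD37 (-1.02 ± 0.25) were lower. Cytokine genes were mostly higher (12 of 20, median 3.16, or 3.63 with 6 genes at their bound), but TNF was not called (0.73 ± 1.58), and CCL5, a product of cytotoxic cells, was lower (-4.22 ± 1.40). Of 9 interferon-stimulated genes IFI6 and IFIT5 were higher, and ISG15, IRF1, IRF7 and RSAD2 were lower. Of 19 immediate early genes 9 were higher and 0 lower (median 1.28).

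Donors differed in the balance of macrophage and monocyte transcripts. The summed UMIs of 14 macrophage genes exceeded those of 10 monocyte genes in every donor, by a log2 ratio of 1.39 to 6.55 with a median of 5.60. Donors 2, 3, 4 and 9 had the lowest ratios (2.04, 1.39, 1.64 and 2.89) and the other 6 donors lay between 5.60 and 6.55. S100A12 was at 2014, 1581, 2967 and 1150 CPM in donors 2, 3, 4 and 9 and at 3.83 to 182 CPM in the other 6, and FCN1 at 464 to 960.5 CPM against 5.04 to 209. These transcripts lay mainly in few cells, since the 24 cells of sub-cluster 6 held 1640 of the 1679 S100A12 UMIs and 465 of the 592 FCN1 UMIs. Donors 2, 3, 4 and 9 had 5, 1, 10 and 3 of these cells. Neutrophil RNA cannot be told from monocyte RNA by the calgranulins alone: donor 4 had 23 of the 51 annotated neutrophils and donors 2, 3 and 9 had 5, 3 and 0.

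Monocytes/macrophages made up 46.9% to 79.1% of the annotated leukocytes of a donor, with a median of 55.0% (lowest and highest 95% Wilson bounds, 30.9% and 84.8%). How well each type survived digestion was not measured. In the calves the shares were 54.9%, 55.1%, 79.1%, 72.6% and 52.7% (donors 2, 4, 5, 7 and 10), and in the adults 61.1%, 50%, 61.2%, 46.9% and 48.8% (donors 1, 3, 6, 8 and 9), so the groups overlapped. The means were 62.9 ± 12.1% and 53.6 ± 7.00% (n = 5 each, exact 2-sided permutation test, p = 0.214, smallest possible p 0.00794). As a share of all annotated cells the means were 9.68 ± 4.69% and 7.99 ± 3.48% (exact permutation test, p = 0.516). The macrophage to monocyte ratio did not separate the ages either, at 4.35 ± 2.32 and 4.35 ± 2.09 on the log2 scale (exact permutation test, p = 0.984).

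Of the 6 sub-cluster shares, the difference with the lowest p was that of the dendritic cell-like sub-cluster 4. It made up 10.7%, 6.98%, 3.31%, 6.56% and 12.8% of the cells in the calves and 24.2%, 38.5%, 20%, 33.3% and 10% in the adults. Adult donor 9 lay within the range of the calves and the other 4 adults above it. The means were 8.07 ± 3.73% and 25.2 ± 11.2% (exact permutation test, p = 0.0238, adjusted p = 0.143 over 6 sub-clusters), which did not pass the threshold. None of the 6 passed, but without adult donor 9 sub-cluster 4 did (exact permutation test, adjusted p = 0.0476). FCGR1A, which differed with age (below), was among the leading genes of sub-cluster 3, so the size of that sub-cluster is not read as a difference.

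**Figure D4:**
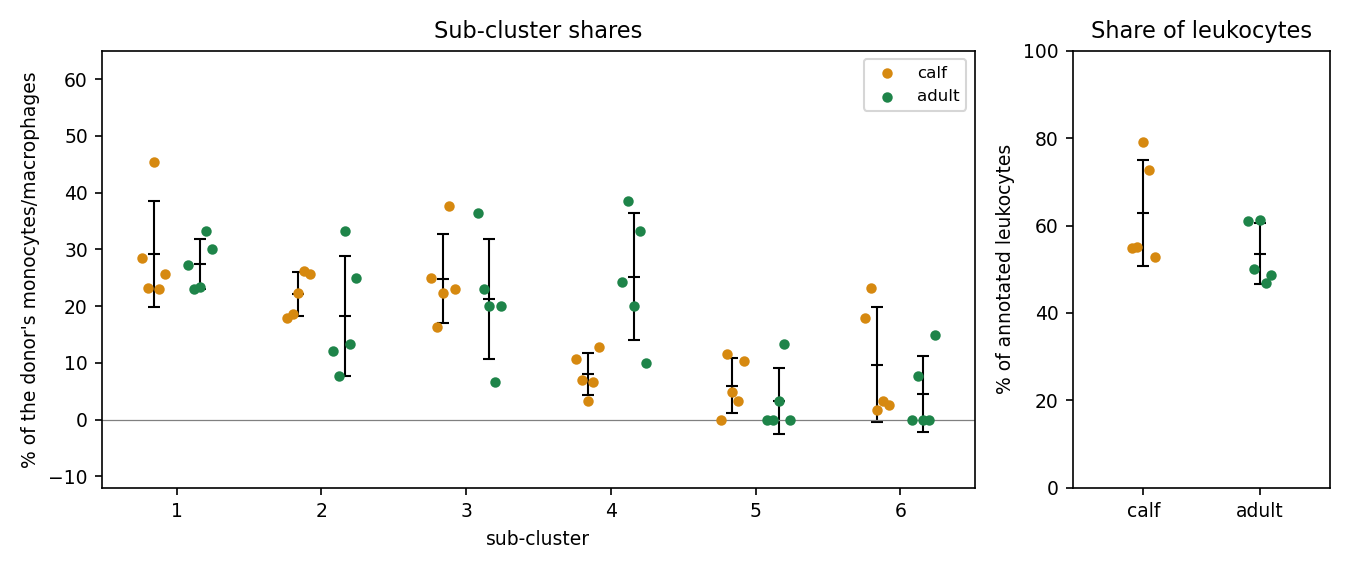
Share of each sub-cluster among a donor's monocytes/macrophages (left) and share of monocytes/macrophages among a donor's annotated leukocytes (right), in percent, 1 point per donor with mean ± SD for 5 calves and 5 adults. Sub-cluster 4 averages 8.07% in the calves and 25.2% in the adults, and the shares of leukocytes overlap.

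Few genes of the monocytes/macrophages passed the test between calves and adults. In edgeR's quasi-likelihood test on the sums of 5 calves and 5 adults, 2 of 2810 genes (0.0712%) were higher and 1 (0.0356%) was lower in calves at an adjusted p below 0.05 and a log2 fold change beyond 1, and 230 had an unadjusted p below 0.05. Both higher genes encode receptors for IgG, through which macrophages take up antibody-coated particles. In the scaling of this fit FCGR2A was at 102, 99.6, 173, 75.2 and 130 CPM in the calves (donors 2, 4, 5, 7 and 10) and at 11.6, 29.5, 11.5, 38.0 and 49.5 CPM in the adults (donors 1, 3, 6, 8 and 9). The lowest calf lay above the highest adult, and the log2 fold change was 2.24 (SE 0.39, edgeR adjusted p = 0.0188).

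FCGR1A was at 395, 513, 468, 507 and 450 CPM in the calves and at 243, 133, 235, 291 and 198 CPM in the adults. Again the groups did not overlap (log2 fold change 1.07, SE 0.19, adjusted p = 0.0188). OSBPL1A, an oxysterol-binding protein of endosomes, was lower in calves, at 44.7, 25.8, 69.7, 64.4 and 63.1 CPM against 116, 118, 206, 177 and 140 CPM in the adults (log2 fold change -1.44, SE 0.27, adjusted p = 0.0230). BRB, the secreted RNase, had the lowest adjusted p of all genes (0.00633) but a log2 fold change just below 1 (0.98, SE 0.15), with 4913 to 8817 CPM in the calves and 2860 to 3827 CPM in the adults. Copies of FCGR2A, FCGR2B and FCGR3A are similar in sequence, so counts of these receptors are uncertain.

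The other Fc receptor genes did not pass edgeR's test. FCGR3A was at 525.5 ± 75.7 CPM in calves and 236 ± 124 CPM in adults (1.14, SE 0.27, adjusted p = 0.150), FCGR2B at 143 ± 58.5 and 107 ± 40.3 CPM (0.44, SE 0.31, adjusted p = 0.765), and FCGRT, the neonatal Fc receptor, at 739 ± 124 and 553 ± 127 CPM (0.42, SE 0.18, adjusted p = 0.578). Values of FCGR3A did not overlap between the ages, nor did those of C1QB (4988 ± 960 and 3145 ± 898 CPM, adjusted p = 0.286) and CX3CR1 (206 ± 39.6 and 115 ± 31.1 CPM, adjusted p = 0.267), none of which edgeR called. The share of all tested genes without overlap is not given here, so a lack of overlap alone is not read as a difference. DESeq2 did call FCGR3A (1.15, adjusted p = 0.0236), as did edgeR with no filter on low counts (1.23, adjusted p = 5.61e-06). CSF1R (0.10), CD14 (0.45) and PTPRC (-0.07) had adjusted p-values of 0.935, 0.662 and 0.989.

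In the gene lists, 1 of 14 scavenging receptors tested was higher in calves (FCGR1A) and no gene of the other lists was called. The list medians on the log2 scale were 0.42 for scavenging receptors, 0.56 for the 5 complement genes, 0.17 for the 11 class II genes, 0.07 for the 12 cytokine and chemoattractant receptors, -0.13 for 10 iron and lipid genes, 0.77 for 3 interferon-stimulated genes and -0.33 for 3 dendritic cell genes, against -0.01 for all genes.

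**Figure D5:**
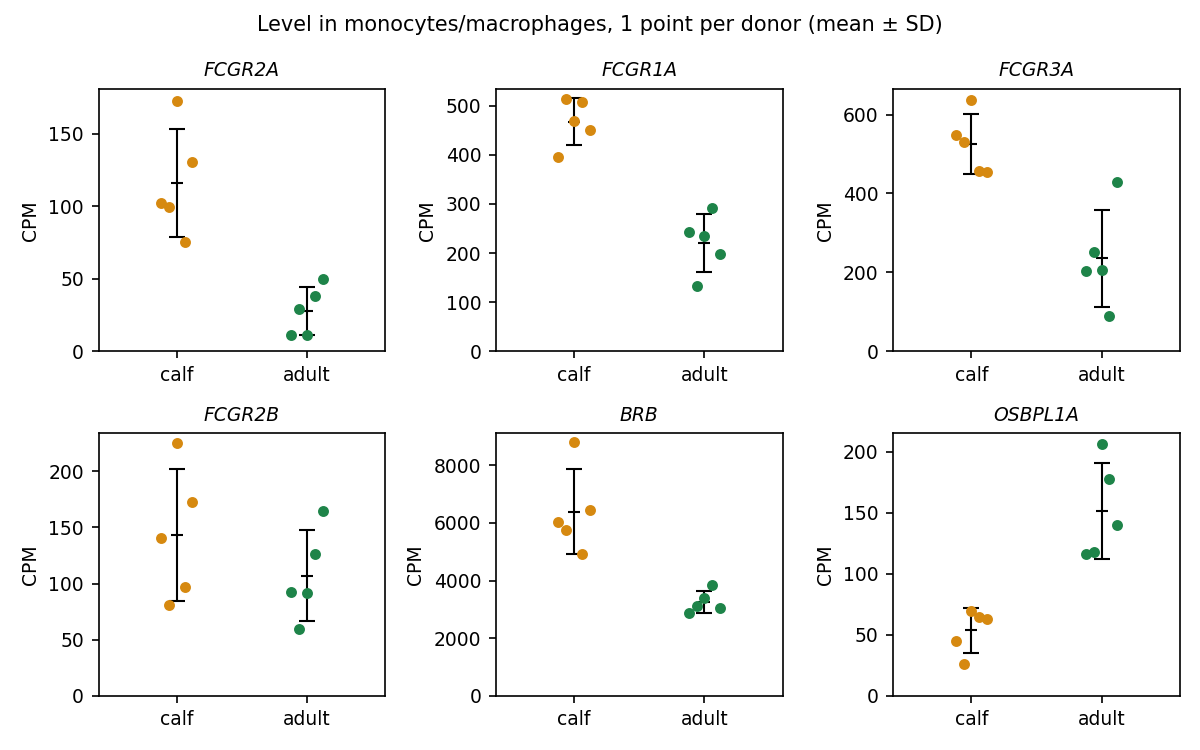
Level of 6 genes in the monocytes/macrophages of 5 calves and 5 adults in CPM, 1 point per donor with mean ± SD. FCGR2A, FCGR1A, FCGR3A and BRB are higher in every calf than in any adult and OSBPL1A is lower, while FCGR2B overlaps.

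The mean share of the dendritic cell-like sub-cluster 4 was 8.07% in these calves and 25.2% in these adults, not past the threshold. Its cells had little FCGR1A (8.68 CPM), no FCGR2A and little BRB (2.89 CPM). Whether this share bears on the calls was not tested. Within sub-clusters 1 to 3 the log2 fold change was 2.07 for FCGR2A (adjusted p = 0.0367) and -1.65 for OSBPL1A (adjusted p = 0.0184), both called, but FCGR1A fell below the threshold (0.92, adjusted p = 0.0955), as did BRB (0.77, adjusted p = 0.0955). There 2 adults had fewer than 10 cells, and with the 5 calves and 3 adults that had more, edgeR gave 2.36 for FCGR2A (adjusted p = 0.0425) and 1.06 for FCGR1A (adjusted p = 0.0511). In that edgeR fit BRB (1.01, adjusted p = 0.0142) and OSBPL1A (-1.50, adjusted p = 0.0425) were called. Without the mast cell-like sub-cluster 5 all 3 calls held, with edgeR adjusted p-values of 0.0164, 0.0164 and 0.0290 for FCGR2A, FCGR1A and OSBPL1A, and BRB was also called (1.01, adjusted p = 0.00481).

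The calls depended on single animals. When each donor was left out in turn, FCGR2A stayed called in 8 of 10 fits, FCGR1A in 4 and OSBPL1A in 3, with edgeR adjusted p-values up to 0.113, 0.0787 and 0.160, while the log2 fold changes stayed between 1.97 and 2.65, 0.96 and 1.17, and -1.59 and -1.27. None of the 3 genes passed without adult donor 1 or without adult donor 6. With only donors of at least 20 cells none of the 3 passed either (edgeR adjusted p = 0.0707 to 0.0824), at log2 fold changes of 2.43, 1.05 and -1.46, and with sex in the model OSBPL1A did not (adjusted p = 0.0687).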

How the data were processed

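The study's authors prepared 1 Chromium 3′ library from the pooled muscle cells of 10 cattle, aligned it with Cell Ranger 6.0.1 to ARS-UCD1.2, assigned donors with demuxlet and removed cells beyond 3 median absolute deviations. The deposited matrix holds raw UMI counts per gene and cell. The deposited cell table gives the label, the donor and the mitochondrial percentage that the authors computed per cell, and its 17 other columns were not used. Doublets within a donor cannot be seen by genotype and were not looked for in another way. The cells and gene lists were chosen with earlier results of these data known.

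UMIs were summed per donor. Ratios within donors used TMM factors (edgeR 4.0.16, R 4.3.3) from genes with a mean of at least 20 CPM and a prior count of 2. Calves and adults were compared with edgeR's quasi-likelihood test with Benjamini-Hochberg adjustment, and other measures with exact permutation tests, both two-sided. P-values measure the spread between donors of 1 library. Sub-clusters came from scanpy 1.11.5 (1000 variable genes, 15 components, Leiden resolution 0.5). Named genes were the list genes, the 12 largest ratios in each direction among genes with a symbol and the same sign in every donor, and the calf-adult calls; BRB and FCGRT in that comparison, and leading genes of sub-clusters outside the lists, were added after their values were seen. Of 21880 genes, 5052 were listed by ID alone. Intervals and floors (3 counts) cover counting error only. Alternatives were DESeq2 1.42.0, other filters, prior counts and scalings, thinning, sex as a covariate and leaving out each donor. Those on sub-clusters and on TMM factors from all genes were chosen after seeing the data. The models were tested on simulated data. Some genes are not reported here.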

Additional observations from a re-analysis of the deposited data

Results flagged for a closer look

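In 24 of 219 sets of donor values, 1 donor lay far from the others by Dixon's criterion. For normally distributed values chance gives about 1 in 20. CPM and shares were used without logs, and all flagged values lay at the high end, so that rate need not hold here. Calf donor 5 stood apart in the share of sub-cluster 1 (45.5%, next calf 28.6%) and in C1QC (8043 CPM, next 4974), C3AR1 (399, next 249), CCL16 (440.4, next 115), DUSP1 (2606, next 1846) and JUN (5704, next 3818). Adult donor 8 stood apart from the other adults in the share of the mast cell-like sub-cluster 5 (13.3%, next adult 3.33%). That share was 2 of 15 cells, and calf donors 4 and 10 had 11.6% and 10.3%. Donor 8 was also high in FCER1A (314 CPM, next 55.8). Adult donor 6 was high in APOE (1478 CPM, next 171), HMOX1 (1761, next 435), CR2 (883, next 498) and NLRP3 (242, next 137).

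Adult donor 3, with 13 cells, was high in PTPRC (462 CPM, next 314), FLT3 (170.2, next 60.4), BOLA-DOB (182, next 83.6), IFIT5 (122, next 81.3) and CFB (12.2, next 5.04). CFB had 3 UMIs in the monocytes/macrophages of all donors together, so its flag rests on very few counts. Adult donor 1 was high in CD1B (146 CPM, next 60.8) and TNFSF13B (80.6, next 46.1). Calf donor 2 was high in LIPA (464 CPM, next 255) and TLR2 (104, next 54.7), calf donor 4 in AREG (529.8 CPM, next 243), and calf donor 10 in CCL8 (509.6 CPM, next 263) and TOP2A (92.0, next 41.3).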

How the results depend on the processing

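The 3 calf-adult calls became 5 with DESeq2 (FCGR3A among them), 54 with no filter on low counts, and 1 (BRB) both with donors of at least 20 cells and after thinning to the smallest UMI total. They ranged from 0 to 4 with a donor left out (0 in edgeR without adult donor 1 or adult donor 6, with 207 and 250 genes at an unadjusted p below 0.05). The difference in macrophage to monocyte balance, near 0, took either sign: it was -1.01 from 4 receptors against 3 calgranulins, -0.000876 with a pseudocount of 0.5, and -0.736 to 0.682 with a donor left out. The number of sub-cluster shares past the threshold was 0 to 1, and the difference in the share of leukocytes was 5.24 to 11.8 percentage points. Against all other cells, 404 genes were higher and 465 lower at a mean of at least 50 CPM (fewer genes tested), and 2206 were lower with no filter (more genes tested). Against lymphocytes, 356 were higher at 50 CPM, and 486 were lower with the 4 donors of at least 20 cells. Other alternatives kept these counts of genes within 1.5 times. With TMM factors from all genes 571 genes were higher and 1007 lower than in other cells, and for sub-clusters 1 to 3 alone 530 and 952 (631 and 937 without sub-cluster 5). The mitochondrial difference was 0.222 with means and 0.465 with medians.

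With donor as a replicate block in edgeR, 659 genes were higher and 873 lower than in all other cells, and 617 and 284 against lymphocytes. No paired analysis was possible for calves against adults because each donor belongs to 1 age group. The shallow sums of lymphocytes (from 42591 UMIs) limit what can be seen of myeloid genes there.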
